A study of Mus musculus with 8 samples.

Results

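Mitosis, spindle and kinetochore genes encode the machinery that condenses replicated chromosomes, attaches them to the spindle and splits the cell. Cyclin-dependent kinase CDK1 with the B-type cyclins starts the process, the spindle checkpoint holds anaphase until every kinetochore is attached, and the anaphase-promoting complex (APC/C) with its activator CDC20 then marks the cyclins and securin for degradation. Transcripts of most of these genes are made in G2 and M phase, so their bulk level is widely read as a sign of proliferation in neural stem cell (NSC) cultures. In bulk RNA, fewer dividing cells and less of each transcript per dividing cell cannot be told apart.

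The genes were 60 named members of this machinery, each followed at the array probe set that carries its symbol alone and has the highest mean signal over all arrays. Of the 60, 59 had such a probe set among 18193 genes in all, and 1, the cyclin B1 gene Ccnb1, did not. RNA came from NSCs of adult mouse brain, grown first as primary and then as secondary neurospheres, which are floating spheres of stem and progenitor cells. The study's methods describe neurospheres from embryonic or adult mouse forebrain, and give neither age nor strain for the arrays. The control cultures received MHM + GF, the culture medium MHM with the growth factors EGF and FGF-2, and the treated cultures received rcCHIL3, recombinant CHIL3 (labelled RcECF-L) in medium from HEK293T cells transfected with Chil3. The secondary neurospheres were harvested after 3 days or 7 days, with 2 arrays from independent experiments in each of the 4 groups. The sample labels name the control MHM alone, and the growth factors come from the study's methods, whose culture scheme lists rcCHIL3 apart from rcCHIL3 with growth factors. No array carried medium from cells without Chil3, so the presence of CHIL3, the lack of added EGF and FGF-2 and the conditioning of the medium cannot be told apart in any comparison of the media.

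Signals are the deposited intensities after each array was brought to an average of 100, and changes are differences of log2(signal + 20) with a standard error (SE) from a single limma fit. The offset of 20 makes a log2 change smaller than the change in signal where signals are low. A call is an adjusted p under 0.05 over all probe sets fitted. Both arrays of a group correlated at 0.992 to 0.994, and between 30.1% and 31.4% of the probe sets reached a signal of 50 on each array. All 10 measured NSC markers, among them Sox2 and Nes, reached that signal on at least 2 arrays, and none of the 7 microglia and macrophage markers or the 6 endothelial markers did (summed signals of 31.7 to 71.8 and of 12.8 to 48.7). Of the 6 ependymal and choroid plexus markers 4 reached it, as did 4 of the 7 mural and fibroblast markers.

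The mitosis genes were highest in MHM + GF at 3 days and lower in each of the other groups. Their summed signal over 59 genes was 21790 and 22340 on the MHM + GF arrays at 3 days, 5114 and 5219 at 7 days, 4029 and 3835 in rcCHIL3 at 3 days and 2552 and 2598 at 7 days, with no overlap between groups. Without a filter on low signals, 58 of the 59 genes were lower with rcCHIL3 than with MHM + GF at 3 days, against 11.8% of all 18193 genes, and their median log2 change was -2.15. The count at 7 days was 51, against 10.2% of all genes, and the median was -0.73. From 3 to 7 days 57 fell in MHM + GF (12.9% of all genes; median -1.85) and 31 fell in rcCHIL3 (7.8% of all genes; median -0.42). No mitosis gene was higher in any of these comparisons, whereas 14.5%, 10.2%, 18.2% and 9.99% of all genes were.

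With the filter of a signal of 50 on at least 2 arrays, 56 of the genes were tested among 8965, and 23 of the 56 reached it on the MHM + GF arrays at 3 days alone. Counts over the 56 therefore describe genes that were chosen in part by their level in that group. They were 56 lower at 3 days (22.1% of all tested genes), 52 lower at 7 days (22.6%), 56 falling with time in MHM + GF (24.2%) and 43 falling with time in rcCHIL3 (18.1%). None was higher in these 4 comparisons, where 30.3%, 21.8%, 34% and 20.3% of all tested genes were. The methods' t-test with Benjamini-Hochberg adjustment called 53, 0, 47 and 0 of the 56 in the same comparisons, so the calls at 7 days and with time in rcCHIL3 rest on the spread that limma shares across probe sets and groups. The 13 genes with a signal of 50 or more on all 8 arrays are free of that choice. Of these 13, 13 were lower with rcCHIL3 at 3 days, 11 at 7 days, 13 fell with time in MHM + GF and 9 fell with time in rcCHIL3. The matching shares of all genes with a signal of 50 or more on all 8 arrays were not counted. The group means of 50 of the 56 genes ran from MHM + GF at 3 days through MHM + GF at 7 days and rcCHIL3 at 3 days to rcCHIL3 at 7 days. The highest mean was in MHM + GF at 3 days for 56 of the 56 and for 25.8% of all tested genes, and the lowest was in rcCHIL3 at 7 days for 53 and for 22.6% of all tested genes. The summed signal of the 10 NSC markers was 9960 to 10200 in MHM + GF and 7950 to 8820 in rcCHIL3. Of these markers, 4 were higher and 4 lower in rcCHIL3 at 3 days, and none was higher and 4 were lower at 7 days. Markers of other cell types also differed between the groups. The summed signal of the 7 astrocyte markers was 5100 to 5160 in MHM + GF at 3 days and 7160 to 8830 in the other groups, with 4 higher and 2 lower in rcCHIL3 at 3 days. That of the 7 oligodendrocyte lineage markers was 3840 to 3870 against 5100 to 6010, with 4 of 6 tested higher and 2 lower in rcCHIL3 at 3 days, and 3 higher and 3 lower with time in MHM + GF. That of the 8 neuron and neuroblast markers was 1550 to 1590 in MHM + GF at 3 days, 2350 to 2430 at 7 days, 1840 to 1880 in rcCHIL3 at 3 days and 1360 to 1480 at 7 days. The 6 ependymal and choroid plexus markers summed to 128 to 254 in MHM + GF at 3 days and 535 to 814 at 7 days. In rcCHIL3 they summed to 321 to 655 and 872 to 1060, with 3 of 4 tested higher and 1 lower at 3 days. The 7 mural and fibroblast markers summed to 242 to 272 and 524 to 576 in MHM + GF. In rcCHIL3 they summed to 263 and 207 to 213, with 2 of 4 tested higher and 1 lower at 3 days. The part of these marker differences in the fall of the mitosis genes was not tested.

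**Figure D1:**
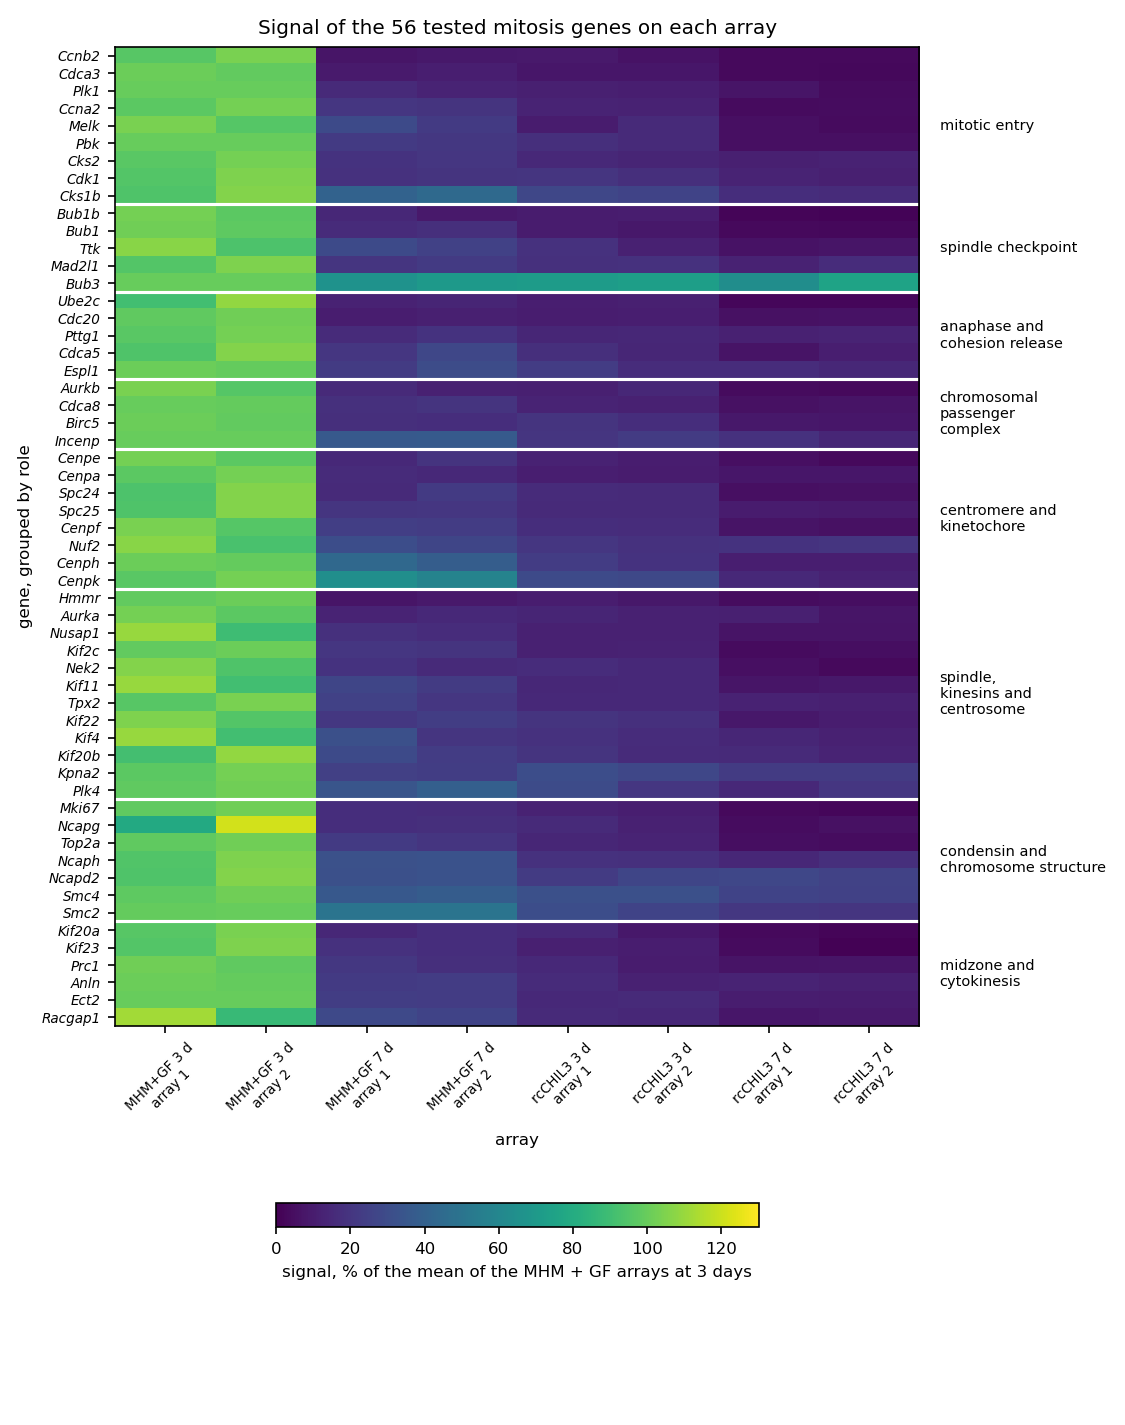
Signal of the 56 tested mitosis genes (rows, grouped by role) on each of the 8 arrays (columns), as a percentage of the mean of the MHM + GF arrays at 3 days. Every gene is brightest in the left pair of columns, and Bub3 alone stays above 60% throughout.

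The promoters of several members are shown because many genes of this machinery share short promoter motifs, whose part in the falls was not tested. The best known are the cell cycle genes homology region, with the letters TTTGAA, where the DREAM and MuvB complexes bind, and CCAAT, the letters bound by NF-Y. RefSeq windows of GRCm38.p6 from 250 bases before to 50 bases after the start were at hand for 51 of the 60 genes. The windows below belong to the 3 genes with the largest falls at 3 days and to the gene with the smallest. They are written 5′ to 3′ on the gene's strand, with TTTGAA and CCAAT on either strand in capitals.
Cdca3, chr6:124829926-124830225, plus strand: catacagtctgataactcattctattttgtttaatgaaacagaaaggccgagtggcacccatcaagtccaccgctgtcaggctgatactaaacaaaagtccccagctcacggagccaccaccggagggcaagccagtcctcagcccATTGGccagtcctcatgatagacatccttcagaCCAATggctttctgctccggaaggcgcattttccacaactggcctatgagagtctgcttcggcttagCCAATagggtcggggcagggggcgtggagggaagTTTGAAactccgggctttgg
Cdc20, chr4:118437294-118437593, minus strand: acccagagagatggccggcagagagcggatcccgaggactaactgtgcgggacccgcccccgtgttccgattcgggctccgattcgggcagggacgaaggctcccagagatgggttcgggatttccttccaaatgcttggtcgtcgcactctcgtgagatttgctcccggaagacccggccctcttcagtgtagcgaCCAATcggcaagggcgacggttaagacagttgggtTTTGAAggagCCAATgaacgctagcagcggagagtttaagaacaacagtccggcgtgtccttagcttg
Ccnb2, chr9:70421505-70421804, minus strand: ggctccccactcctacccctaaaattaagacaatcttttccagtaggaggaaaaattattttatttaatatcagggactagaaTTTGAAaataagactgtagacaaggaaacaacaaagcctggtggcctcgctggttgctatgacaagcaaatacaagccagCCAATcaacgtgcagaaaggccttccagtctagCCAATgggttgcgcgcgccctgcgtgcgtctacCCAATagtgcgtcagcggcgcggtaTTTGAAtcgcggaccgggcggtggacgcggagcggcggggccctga
Bub3, chr7:131560120-131560419, plus strand: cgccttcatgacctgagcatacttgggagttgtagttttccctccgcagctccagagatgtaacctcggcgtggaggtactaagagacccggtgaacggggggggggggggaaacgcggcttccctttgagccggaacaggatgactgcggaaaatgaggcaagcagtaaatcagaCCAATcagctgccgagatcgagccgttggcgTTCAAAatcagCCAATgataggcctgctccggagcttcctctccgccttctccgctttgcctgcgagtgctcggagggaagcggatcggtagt

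All 4 windows hold TTTGAA and at least 2 CCAAT, Bub3 included. TTTGAA on either strand was found in the windows of 36 of the 51 genes (70.6%), against 20.2% of the 27025 genes with a window and 13.6% of those tested on the arrays. Within 50 bases of the start it was found in 33 of the 51 (64.7%), against 5.72% of all genes and 3.55% of tested genes. CCAAT was found in 37 (72.5%, against 41.1% of all genes and 43.5% of tested genes). At least 2 copies were found in 26 (51%, against 13.3% of all genes and 17.3% of tested genes). The letters TTTGGCGC, TTTCCCGC and TTTCGCGC are forms of the site for E2F factors that contain neither motif. They were found in 4 of the 51 (7.84%, against 2.12% of all genes and 4.38% of tested genes). Among the 23 S phase genes with a window, TTTGAA near the start was found in 1 (4.35%), CCAAT in 15 (65.2%) and the E2F letters in 10 (43.5%). TTTGAA near the start was found in 31.4% of 35 other spindle and cytokinesis genes, 29.6% of 27 other kinetochore genes and 33.3% of 6 other condensin and chromatin genes. Differences between the lists were not tested. The median log2 change at 3 days was -2.18 for the 31 tested genes with it and -2.11 for the 17 without it, with ranges from -3.04 to -0.45 and from -2.85 to -1.35. These are matches of letters, not measured binding.

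**Figure D2:**
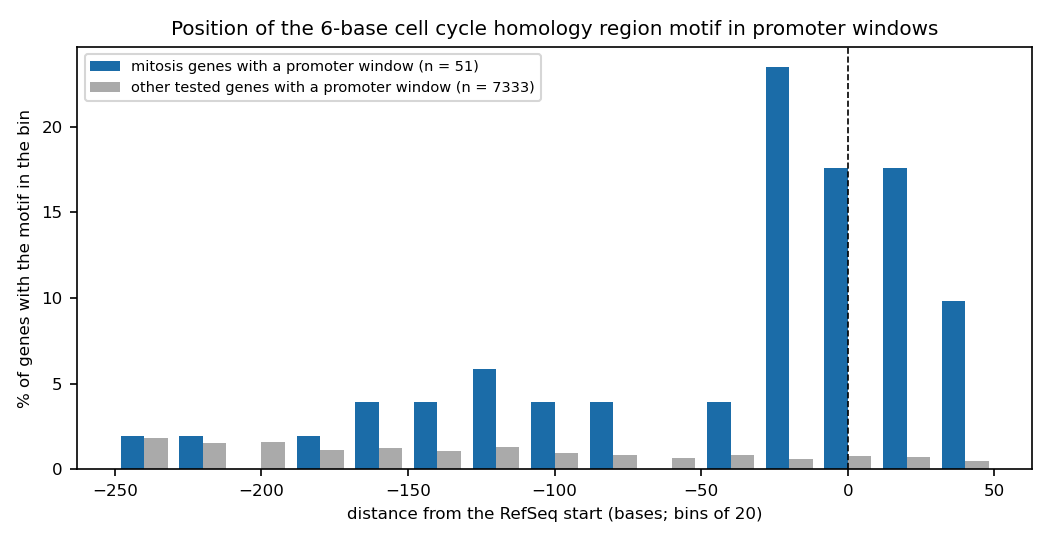
Share of genes whose RefSeq window holds the 6-base cell cycle homology region motif in each bin of 20 bases, by distance from the start, for the 51 mitosis genes with a window (blue) and the 7333 other tested genes with a window (grey). The blue bars reach 23.5% in the bin from 30 to 11 bases before the start, where the grey bar is at 0.586%.

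The 9 tested genes of mitotic entry had a median log2 change of -2.38 between the media at 3 days, beside -2.71 for the 5 genes of anaphase. Cdca3, which encodes a trigger of mitotic entry that drives WEE1 degradation, had signals of 413 and 405 in MHM + GF at 3 days and of 31.7 and 33 in rcCHIL3 (log2 change -3.04, SE 0.09, adjusted p = 9.19e-10). The cyclin B2 gene Ccnb2 had 321 and 345 against 29.1 and 20.8 (-2.98, SE 0.11). Both genes were low on all 6 arrays outside MHM + GF at 3 days, with no signal above 44.6 for Cdca3 or 29.1 for Ccnb2. Cdk1, the kinase that drives entry into mitosis, had 559 and 615 in MHM + GF at 3 days, 108 and 113 at 7 days, 117 and 102 in rcCHIL3 at 3 days, and 76.1 and 67.8 at 7 days. Its mean in rcCHIL3 at 3 days was 5.36-fold below that of MHM + GF, and at 7 days it was 1.54-fold below. Ccna2, the cyclin A gene of S and G2 phase, kept a larger difference at 7 days, with 104 and 98.4 in MHM + GF and 19.4 and 21.5 in rcCHIL3 (-1.59, SE 0.09, adjusted p = 1.5e-07). Plk1, a kinase of spindle assembly and mitotic exit, was at 166 and 166 in MHM + GF at 3 days and at or below 25.5 on the other arrays.

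The small CDK-binding proteins CKS1 and CKS2 followed different courses. Cks1b, which also serves the SCF ubiquitin ligase in G1, had 893 and 1007 in MHM + GF at 3 days, 388 and 423 at 7 days, 261 and 246 in rcCHIL3 at 3 days, and 163 and 154 at 7 days. Cks2 had 1009 and 1076, 199 and 215, 156 and 143, and 117 and 129.8 in the same order. The rcCHIL3 difference of Cks1b was -1.82 at 3 days and -1.25 at 7 days, and that of Cks2 was -2.65 and -0.66. The change of the difference between the days was 0.57 (SE 0.11, adjusted p = 0.0019) for Cks1b and 1.98 (SE 0.11, adjusted p = 2.1e-07) for Cks2. Melk and Pbk, mitotic kinases used as progenitor markers in neurosphere work, were lower with rcCHIL3 at 3 days (-2.09 and -2.38) and at 7 days (-1.06 and -1.50). Foxm1, the transcription factor that activates many G2 and M genes, was under the filter, with 40.8 and 34.3 in MHM + GF at 3 days and 14.7 and 18.2 in rcCHIL3. In the fit of all probe sets it was lower with rcCHIL3 at 3 days (-0.66, SE 0.12, adjusted p = 0.00395) and at 7 days (-0.45, SE 0.12, adjusted p = 0.0326). Its change with time in MHM + GF was -0.25 (SE 0.12, adjusted p = 0.168).

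**Figure D3:**
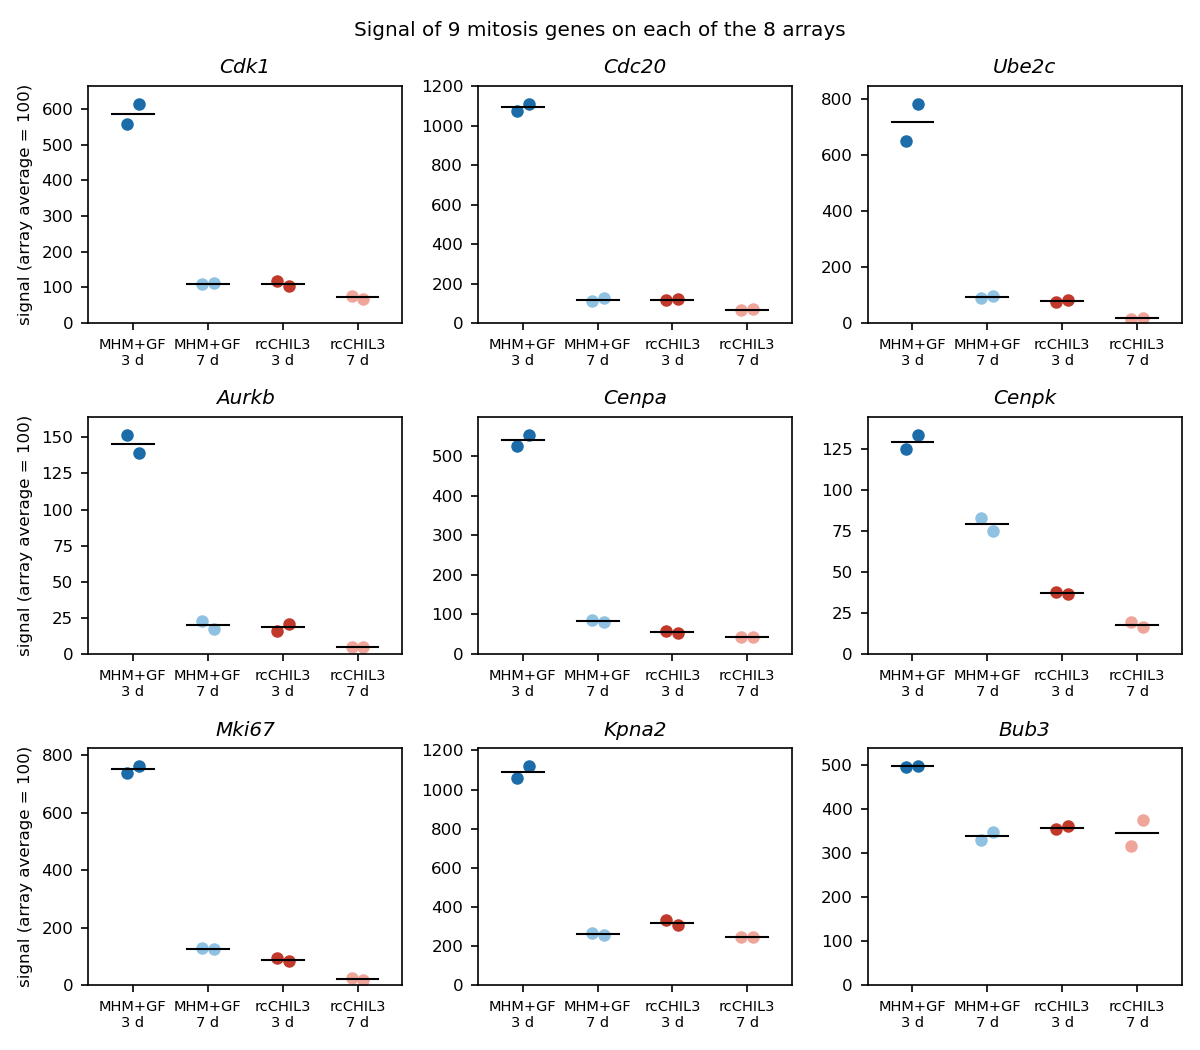
Signal of 9 mitosis genes with 1 dot for each array and a bar at the mean of each group, on linear axes that start at 0. For Cdk1, Cdc20, Ube2c and Aurkb the arrays of MHM + GF at 7 days and rcCHIL3 at 3 days lie close together, Kpna2 is higher in rcCHIL3 at 3 days than in MHM + GF at 7 days, and Bub3 has its other 6 arrays between 317 and 376.

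Among the spindle checkpoint genes, 4 of 5 fell far and Bub3 did not. Bub1, a checkpoint kinase of the kinetochore, had 293 and 280.3 in MHM + GF at 3 days and 28.4 and 24.4 in rcCHIL3 (-2.73, SE 0.10). Bub1b, which encodes the checkpoint inhibitor BUBR1, had 129 and 122 against 12.5 and 12.8 (-2.16, SE 0.12), and 2.38 and 1.73 in rcCHIL3 at 7 days. Mad2l1, whose product sequesters CDC20, had 428 and 473 in MHM + GF at 3 days and 81.1 and 83.4 in rcCHIL3, a mean 5.48-fold lower. At 7 days the Mad2l1 difference was -0.43 (SE 0.11, adjusted p = 0.0067), and it did not pass without rcCHIL3 7 days replicate 1. The checkpoint kinase gene Ttk was lower by -1.78 (SE 0.12) at 3 days and -0.82 (SE 0.12) at 7 days. Bub3, which binds BUB1 and BUBR1 and is made outside mitosis too, had 496 and 499.6 in MHM + GF at 3 days, 330.2 and 348 at 7 days, 354 and 362 in rcCHIL3 at 3 days, and 317 and 376 at 7 days. The first group stood above all the others, and the arrays of rcCHIL3 at 7 days spanned the values of both groups between. The change at 3 days was -0.45 (SE 0.08, adjusted p = 0.00064), the smallest of the 56, and at 7 days it was 0.02 (SE 0.08, adjusted p = 0.83). A dimmer Bub3 probe set, with a mean signal of 59.3 over the 8 arrays, was also lower at 3 days (-0.46) but higher with rcCHIL3 at 7 days (0.49, SE 0.11, adjusted p = 0.0038).

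The genes of anaphase onset included the brightest member by mean signal, Pttg1. Cdc20, the APC/C activator held in check by the spindle checkpoint, had 1073 and 1112 in MHM + GF at 3 days, 111 and 127 at 7 days, 114 and 121 in rcCHIL3 at 3 days, and 65.5 and 68.6 at 7 days. It fell about as far by either route, 9.31-fold between the media at 3 days (-3.02, SE 0.08) and 9.19-fold with time in MHM + GF (-3.00, SE 0.08). Both falls start from the same MHM + GF arrays at 3 days. Ube2c, the ubiquitin-conjugating enzyme of the APC/C, had 651 and 785, 88.2 and 96, 76.9 and 82.3, and 15.4 and 17.2 in the same order. From 3 to 7 days in rcCHIL3 Ube2c fell by 1.46 on the log2 scale (SE 0.10, adjusted p = 1.4e-06), the largest such fall of the tested genes, and Cdc20 fell by 0.66 (SE 0.08). Pttg1, which encodes securin, the inhibitor of separase, had 1329.5 and 1425 in MHM + GF at 3 days and 190.5 and 196 in rcCHIL3 (-2.71, SE 0.08). From 3 to 7 days in rcCHIL3 its change was -0.18 (SE 0.08, adjusted p = 0.13). Espl1, the separase gene, was dim, with 69.1 and 67.8 in MHM + GF at 3 days and 20.5 or less on the other arrays. Its difference at 7 days (-0.31, SE 0.11, adjusted p = 0.043) was lost when any of 5 of the 8 arrays was left out.

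The 4 genes of the chromosomal passenger complex, which corrects faulty spindle attachments and later acts in cytokinesis, were lower in rcCHIL3 at both days. Aurkb, its kinase, had 152 and 139 in MHM + GF at 3 days, 22.6 and 17.2 at 7 days, 16.2 and 20.8 in rcCHIL3 at 3 days, and 5.2 and 4.72 at 7 days. Birc5, which encodes survivin, had 318 and 311, 54.6 and 53.9, 61.5 and 53.2, and 26.8 and 24. For both genes the arrays of rcCHIL3 at 3 days and of MHM + GF at 7 days overlapped. Cdca8, which encodes borealin, had the largest fall of the complex at 3 days (-2.71, SE 0.09) and at 7 days (-1.19, SE 0.09). Incenp, the scaffold, was lower by -2.07 (SE 0.10) at 3 days and by -1.03 (SE 0.10) at 7 days.

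At the centromere, Cenpa, the histone H3 variant that marks it, had 526 and 555 in MHM + GF at 3 days, 85.5 and 79.7 at 7 days, 59.1 and 52.8 in rcCHIL3 at 3 days, and 43.4 and 43 at 7 days. The fall at 3 days was 9.66-fold (-2.88, SE 0.09, adjusted p = 7.2e-10). Cenpf, a large protein of the outer kinetochore, had 321 and 293 against 52.7 and 51.3 at 3 days, and 73.4 and 71.7 against 20.8 and 17.2 at 7 days. Cenpk, a subunit of the constitutive centromere network, stood out by a rcCHIL3 difference of like size on the log2 scale at both days. Its signals were 125 and 134 in MHM + GF at 3 days and 83.1 and 75 at 7 days. In rcCHIL3 they were 37.8 and 36.5 at 3 days and 19.4 and 16.2 at 7 days. This order of group means was that of 50 of the 56 genes. The rcCHIL3 difference of Cenpk was -1.39 (SE 0.10) at 3 days and -1.39 (SE 0.10) at 7 days, and the change between the days was -0.01 (SE 0.14, adjusted p = 0.98). Its sign was not stable, since it turned positive with other offsets, scalings or arrays left out. Ndc80, the main microtubule-binding subunit of the kinetochore, was under the filter with 46.9 and 52.1 in MHM + GF at 3 days and 3.26 and 7.26 in rcCHIL3. In the fit of all probe sets it was lower at 3 days (-1.46, SE 0.12, adjusted p = 6.3e-05) and at 7 days (-0.64, SE 0.12, adjusted p = 0.00965). Its partner Nuf2 fell at 3 days (-1.79, SE 0.10) and stood at 31.3 and 28.7 in rcCHIL3 at 3 days and at 29.3 and 31 at 7 days.

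Spindle genes, kinesins and centrosome genes fell by 1.35 to 2.70 on the log2 scale at 3 days. Hmmr, a spindle-associated hyaluronan receptor, had 277 and 284 in MHM + GF at 3 days, 20.1 and 25 at 7 days, 29.6 and 23.3 in rcCHIL3 at 3 days, and 12.2 and 12.9 at 7 days. Nusap1, a microtubule-bundling protein gene, fell as far at 3 days (-2.70, SE 0.10), with 534 and 433 against 58 and 56.7. Aurka, the kinase of centrosome maturation, and Tpx2, which activates it on the spindle, were lower at 3 days by -2.16 (SE 0.11) and -2.20 (SE 0.10). At 7 days the Aurka signals were 20.9 and 23.6 in MHM + GF and 18.1 and 11.6 in rcCHIL3, a difference that did not pass (-0.28, SE 0.11, adjusted p = 0.06), and that of Tpx2 was -0.62 (SE 0.10). Kif2c, a microtubule-depolymerising kinesin, had the largest difference of this role at 7 days (-1.25, SE 0.10), and the bipolar spindle motor Kif11 was lower by -0.86 (SE 0.11). Kif22, a chromosome-arm motor, had the largest fall of this role with time in rcCHIL3 (-0.88, SE 0.10). Plk4, the kinase of centriole duplication, had 178 and 183 in MHM + GF at 3 days and 54 and 36.8 in rcCHIL3 (-1.63, SE 0.14). Kif15, another spindle motor, was at 10.7 or less on every array, so its level could not be followed here.

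Kpna2, which encodes an importin that carries spindle assembly factors, was the 1 member that passed the test as higher in a comparison of groups, that of rcCHIL3 at 3 days with MHM + GF at 7 days. Its signals were 1061 and 1123 in MHM + GF at 3 days, 268 and 256 at 7 days, 333 and 305 in rcCHIL3 at 3 days, and 245 and 245 at 7 days. It was lower with rcCHIL3 at 3 days by 3.42-fold, and at 7 days the difference was -0.09 (SE 0.07, adjusted p = 0.32).

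Genes of chromosome structure fell by 1.57 to 2.85 on the log2 scale at 3 days. Mki67, which encodes the Ki-67 protein that coats mitotic chromosomes, had 738 and 765 in MHM + GF at 3 days, 129 and 125 at 7 days, 92.4 and 82.2 in rcCHIL3 at 3 days, and 25.7 and 17.6 at 7 days. Its difference at 7 days was the largest of the set (-1.83, SE 0.10, adjusted p = 1.8e-07). Top2a, the topoisomerase that untangles sister chromatids, had 815 and 845, 182 and 169, 115 and 109.9, and 41.6 and 36.9, with a difference of -1.72 (SE 0.08) at 7 days. The condensin subunit gene Smc4 fell less, with 670.2 and 698, 244 and 259, 216 and 218, and 181 and 173. Ncapd2, another condensin subunit, had 154 and 174 in MHM + GF at 3 days and 36.7 and 44.9 in rcCHIL3 (-1.60, SE 0.10). At 7 days it had 52.3 and 53.8 against 45.6 and 42.3, a difference that did not pass (-0.19, SE 0.10, adjusted p = 0.15).

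The 6 genes of the midzone and cytokinesis changed by -2.50 to -2.07 at 3 days and by -0.97 to -0.64 at 7 days. Prc1, which bundles the midzone microtubules, had 316 and 304 in MHM + GF at 3 days, 65.4 and 53.7 at 7 days, 46.3 and 31.2 in rcCHIL3 at 3 days, and 22 and 22.8 at 7 days. Anln, the scaffold of the contractile ring, had 285 and 281, 62.8 and 65.5, 45.3 and 33.2, and 36.5 and 32, and its change with time in rcCHIL3 did not pass (-0.12, SE 0.11, adjusted p = 0.41). Racgap1, a centralspindlin subunit, had the largest difference of the role at 7 days (-0.97, SE 0.12). Kif23, its kinesin partner, fell from 15.6 and 14.2 to 5.39 and 0.814 with time in rcCHIL3 (-0.60, SE 0.12).

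For 55 of the 56 tested genes the rcCHIL3 difference in log2 signal with the offset had shrunk by 7 days. This was a change upwards from a negative value, and Cenpk was the exception. Of all tested genes, 19.2% had a change upwards, whether or not the difference shrank, and 24.1% a change downwards. Without the filter 56 of 59 had a change upwards, beside 9.45% of all genes, of which 10.9% had a change downwards. Among the 13 genes with a signal of 50 or more on all arrays it was 13, with no matching share of all genes counted. The median change of the difference was 1.28 on the log2 scale, and 1.34 among those 13 genes. For dim genes its size depends on the offset, which makes log2 changes smaller where signals are low. Kif23, with a change of 1.21, had mean signals of 135 in MHM + GF and 14.9 in rcCHIL3 at 3 days. At 7 days its means were 24.2 and 3.1. Ccnb2 had the largest change of the difference, 2.44 (SE 0.16, adjusted p = 4.9e-07), followed by Cdc20 with 2.35 (SE 0.11) and Hmmr with 2.31 (SE 0.15). In each of these 3 genes the MHM + GF arrays fell from 277 or more at 3 days to 127 or less at 7 days, while the rcCHIL3 arrays were at 121 or less already at 3 days. Among the genes that passed, Bub3 and Cenph changed least, by 0.48 (SE 0.11) and 0.55 (SE 0.14). The comparisons at each day share no arrays, whereas the change of the difference uses all 8. The comparison of the media at 3 days and that with time in MHM + GF share the MHM + GF arrays at 3 days.

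**Figure D4:**
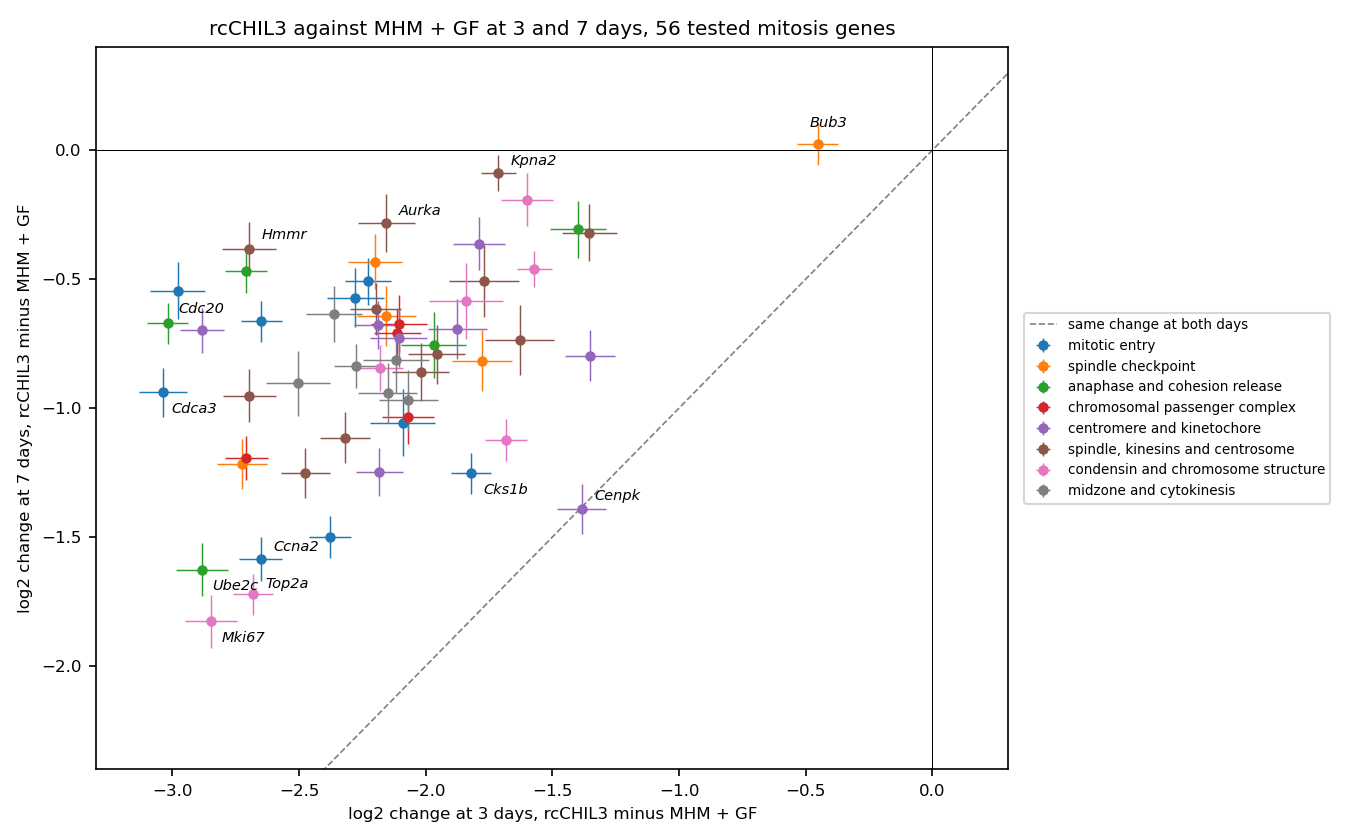
Log2 change of rcCHIL3 minus MHM + GF at 3 days (horizontal) against 7 days (vertical) for the 56 tested mitosis genes, coloured by role, with bars of 1 SE. All points but Cenpk lie above the dashed line of equal change, and Mki67, Top2a, Ube2c and Ccna2 keep the largest differences at 7 days.

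Since rcCHIL3 at 3 days and MHM + GF at 7 days had similar signals for many genes, rcCHIL3 at 3 days was set against MHM + GF at 7 days, a comparison chosen after seeing the data. The culture times differ, so medium and time cannot be told apart in it. Of the 56 tested genes, 32 were lower in rcCHIL3 at 3 days (25.6% of all tested genes were), 1 was higher (22.4%) and 23 did not pass, with a median log2 change of -0.33. Without the filter 28 of 59 were lower (13.3% of all genes). Cenpk (-0.79, SE 0.10) and Smc2 (-0.74, SE 0.08) had the largest differences. Cdk1 (-0.02, SE 0.09), Cdc20 (-0.01, SE 0.08) and Ccnb2 (-0.05, SE 0.11) were among those that did not pass. The higher gene was Kpna2 (0.27, SE 0.07, adjusted p = 0.0086), which did not pass without rcCHIL3 3 days replicate 1. Of the 33 calls, 13 were lost when 1 array was left out, and the methods' t-test with adjustment made 2.

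Other genes of the same processes were counted from lists. Of 33 tested spindle and cytokinesis genes outside the 60, 28 were lower with rcCHIL3 at 3 days and none was higher, with a median of -1.29. Of all tested genes, 22.1% were lower at 3 days, and at 7 days 22.6% were lower and 21.8% higher. Depdc1a (-2.71, SE 0.10), the midbody gene Cep55 (-2.59, SE 0.11) and the spindle pole gene Aspm (-2.49, SE 0.09) were near the values of the members, and the structural genes Haus7 (-0.13, SE 0.10) and Ran (-0.14, SE 0.06) did not pass. At 7 days 17 were lower and 4 higher, among the latter the augmin gene Haus3 (0.82) and Depdc1b (0.79). Of 20 other kinetochore genes, 15 were lower at 3 days (median -1.17), led by Zwilch (-2.35, SE 0.12), Knstrn (-1.97, SE 0.10) and Cenpm (-1.90, SE 0.14). The 5 that did not pass were Cenpc1, Cenpb, Zw10, Zwint and Mis12, with changes from -0.19 to 0.22. The 7 further condensin and chromatin genes were all lower at 3 days (median -0.53), with Hells (-1.58) and Hmgb2 (-1.43) furthest.

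Of 19 tested APC/C subunits and regulators, 5 were lower at 3 days, 2 were higher and 12 did not pass, with a median of -0.11. The share that was lower lies near the 22.1% of all tested genes. The 5 were Fbxo5, the interphase inhibitor of the APC/C (-1.46, SE 0.10), the checkpoint remodelling gene Trip13 (-1.41, SE 0.11), the ubiquitin chain-extending gene Ube2s (-0.69), Anapc15 (-0.67) and the coactivator gene Fzr1 (-0.37). Of 14 cohesin genes and regulators, 6 were lower and 2 higher (median -0.11). The acetyltransferase gene Esco2 (-2.21, SE 0.10) and the shugoshin genes Sgo1 (-2.05, SE 0.12) and Sgo2a (-1.95, SE 0.10) were lower, against -0.72 for the ring subunit gene Smc1a and -0.30 for Rad21. Among 17 other genes of mitotic entry, 9 were lower and 4 higher (median -0.50). The phosphatase gene Cdc25c, which activates CDK1, was lower (-2.30, SE 0.12), whereas Arpp19 (0.36) and Ensa (0.28), inhibitors of a phosphatase that opposes CDK1, were higher.

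All 21 S phase genes that were tested were lower with rcCHIL3 at 3 days (22.1% of all tested genes; median -1.31) and 20 at 7 days (22.6%; median -0.73), led at 3 days by Uhrf1 (-2.43, SE 0.09), Mcm5 (-2.10, SE 0.08) and Rrm2 (-2.04, SE 0.07). With time in MHM + GF 17 of the 21 fell (24.2% of all tested genes), with a median of -0.56, beside -1.90 for the mitosis genes. In rcCHIL3 at 3 days against MHM + GF at 7 days, 20 of the 21 were lower (25.6% of all tested genes) with a median of -0.65, beside -0.33 for the mitosis genes, a difference that was not tested. The G1 cyclin gene Ccnd1, a target of growth factor signalling, had a mean of 866 in MHM + GF at 3 days and 131 in rcCHIL3 (-2.56, SE 0.07). The inhibitor genes of the list went both ways at 7 days, with Cdkn1a higher (0.95) and Cdkn2c lower (-0.58) in rcCHIL3.

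**Figure D5:**
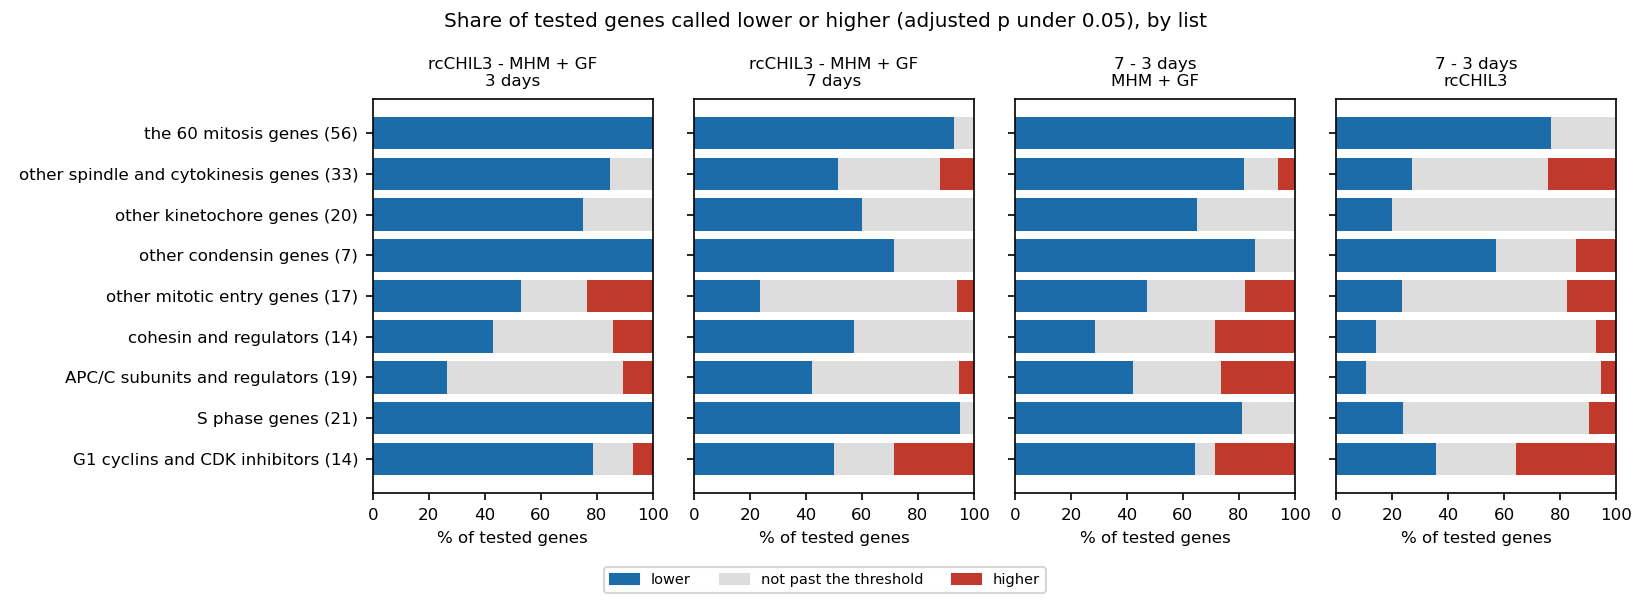
Share of the tested genes of each list called lower (blue), higher (red) or neither (grey) in 4 comparisons, with the number of tested genes in parentheses. The list of other condensin genes also holds chromatin genes. The mitosis genes and the S phase genes are blue throughout at 3 days, while 12 of the 19 APC/C genes are grey there.

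The choice of probe set bears on single genes. Of the 26 members with several tested probe sets, 26 had all of them lower at 3 days and 15 at 7 days, and none had probe sets called in both directions in 1 comparison. The matching shares of all genes with several tested probe sets were not counted. The probe sets of Cdc20, Aurkb, Incenp, Kif22, Kif2c and Ncaph carry the maker's suffix for probes that can match other transcripts, and those of 8 further members the suffix for probes shared by several transcripts. Levels of those genes may therefore include other RNAs. At 7 days 6 calls (Mad2l1, Espl1, Nuf2, Kif20b, Kif4 and Hmmr) were lost when 1 array was left out, and 16 of the 43 calls for time in rcCHIL3 were.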

How the data were processed

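RNA of 8 cultures was hybridised to Affymetrix Mouse Genome arrays, and the deposited values are MAS5 signal intensities on a linear scale, made by the authors with Affymetrix Expression Console 1.1 per the labels. The deposited array averages were 267.3 to 316.6, so each array was rescaled to an average of 100. The 64 array controls were removed from 45101 probe sets, of which 34945 carry 1 gene symbol, 932 several and 9160 none. Probe sets with a signal of 50 or more on at least 2 of 8 arrays (15679) were fitted as log2(signal + 20) with 4 group means in limma 3.58.1 (R 4.3.3; moderated test, two-sided, trended variance, 4 residual degrees of freedom) with Benjamini-Hochberg adjustment over all of them and a threshold of 0.05. Figures and motif counts used Python 3.11.15, pandas 2.3.3 and matplotlib 3.10.9. The fit was tested on simulated data.

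The members and gene lists were chosen with earlier results of these data known. The rule for named genes took textbook regulators of each role, the member with the largest change of each role in each comparison, members against the main direction or under the filter, and up to 3 genes of each other list with the largest change plus those of opposite direction. Other genes were named after their values were seen. The replicate numbers of the labels were not taken to pair the cultures. The array number limits the precision, and no detection calls were used here.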

Additional observations from a re-analysis of the deposited data

Results flagged for a closer look

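The rcCHIL3 effect differed between 3 and 7 days, by the test of the difference itself in limma, for 55 of the 56 tested mitosis genes. All 55 changed upwards, beside 19.2% of all tested genes, of which 24.1% changed downwards. Of the 56 genes, 23 passed the filter through MHM + GF at 3 days alone, a group that enters this test. For dim genes the size of the change depends on the offset. The change of the effect on the log2 scale was 2.44 for Ccnb2, 2.35 for Cdc20, 2.31 for Hmmr and 2.19 for Cenpa. It was 1.77 for Mad2l1, 1.73 for Anln, 1.51 for Cdca8 and 1.41 for Ncapd2. Each of these 8 genes fell with time in MHM + GF. With time in rcCHIL3, Mad2l1 (-0.27), Anln (-0.12) and Ncapd2 (0.07) did not pass.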

How the results depend on the processing

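Leaving out 1 array gave 56 to 56 calls among the tested mitosis genes at 3 days, 48 to 52 at 7 days, 56 to 56 with time in MHM + GF, 29 to 43 with time in rcCHIL3, 55 to 55 for the change of the effect and 24 to 34 for rcCHIL3 at 3 days against MHM + GF at 7 days. The methods' t-test with Benjamini-Hochberg adjustment called 53, 0, 47 and 0 in the first 4 comparisons and 2 in the last (56, 45, 56, 33 and 24 without adjustment), and it uses the spread of the arrays compared alone. With the replicate number as a block the counts were 56, 51, 56, 44, 55 and 35, and same-numbered arrays deviated together with correlations of -0.011 to 0.1, so the numbers were not taken to pair the cultures. Signs turned for 4 genes, with the cause not tested. For Bub3 at 7 days the value was -0.00307 after quantile normalization, -0.0115 without MHM + GF 7 days replicate 1 and -0.0923 without rcCHIL3 7 days replicate 2, in a range up to 0.141 over the arrays left out. For Bub3 with time in rcCHIL3 it was 0.0488 on the deposited scale, 0.189 as the mean of its probe sets (adjusted p = 0.0403 in limma) and 0.0654 without rcCHIL3 7 days replicate 1, in a range down to -0.168. Kpna2 at 7 days was 0.0022 on the deposited scale, and Anln with time in rcCHIL3 was 0.0263 without rcCHIL3 3 days replicate 1, in a range down to -0.27. The change of the Cenpk effect was 0.112 with an offset of 50, 0.0489 after quantile normalization, 0.00879 after centring on the median, and 0.0358, 0.053, 0.0104 and 0.0549 without MHM + GF 3 days replicate 1, MHM + GF 7 days replicate 1, rcCHIL3 3 days replicate 1 and rcCHIL3 7 days replicate 2, in a range down to -0.0664. On the deposited scale the median of all genes moved to 0.122 with time in rcCHIL3 and to 0.109 for the change of the effect. Over 141 single-gene results, 2633 alternative values kept direction and side of the threshold, 134 lost the call, 12 gained it and 15 turned sign. With 2 arrays a group, small differences at low signal cannot be resolved.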
